A study of Mus musculus with 6 samples.

Results

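Endothelial and leukocyte adhesion molecules were followed in mouse cardiac tissue as 9 genes: *Sele*, *Selp*, *Selplg*, *Icam1*, *Icam2*, *Vcam1*, *Pecam1*, *Cdh5* and *Vwf*. They were chosen by name, with earlier results of these data known, and each symbol was matched to its NCBI gene number. All 9 were among the 17441 genes listed in at least 1 library, and all 9 were among the 13120 genes tested. RNA-seq was done on tissue below the ligature, 3 days after surgery, in male mice that were 12 weeks old by their labels and on a C57BL/6 background. WT sham mice had the operation without ligation, and WT MI mice had the left coronary artery ligated. *Card9* KO MI mice were labelled as carrying a *Card9* knockout and had the same ligation. Each group had 2 libraries. With no *Card9* KO mice among the sham libraries used here, the comparison of *Card9* KO MI with WT sham mixes genotype and infarction, which cannot be told apart. The study's methods name both WT littermates and C57BL/6 mice as controls, and the labels do not say which gave these libraries. Nor do the labels say whether a library came from 1 mouse or a pool, so the p-values measure only the spread between these libraries, which may be technical.

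Leukocytes leave the blood in steps. Selectins on activated endothelium and platelets catch leukocytes through glycosylated ligands such as PSGL-1, integrins on the leukocyte then bind immunoglobulin-type receptors such as ICAM-1 and VCAM-1, and the cell crosses the junctions held by VE-cadherin and PECAM-1. After infarction this route is known to bring neutrophils and then monocytes into the myocardium.

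The *Card9* KO MI group, called KO-labelled MI from here on, was not low in the gene it is named for. *Card9* (NCBI gene 332579) was measured as FPKM, fragments scaled by transcript length and by library total. Its values were 0.99 and 1.03 in WT sham, called sham from here on. They were 3.39 and 5.08 in WT MI and 9.85 and 6.94 in KO-labelled MI. Against WT MI the log2 fold change of KO-labelled MI was 0.85 (standard error 0.23, limma adjusted p = 0.11), higher in 2 of 2 libraries. Such a value sums over the gene and leaves unknown which exons were covered. Each direction that involves KO-labelled MI rests on its label. The depth, estimated from the steps between low FPKM values, was 3162823 and 3020629 fragments in sham, 4004686 and 3901906 in WT MI, with 4277912 and 4118402 in KO-labelled MI. For a transcript of 2 kb, 3 fragments would give between 0.351 and 0.497 FPKM.

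Differences were tested with limma on log2(FPKM + 1), all groups in a single fit, and a gene was called at a Benjamini-Hochberg adjusted p below 0.05 over the 13120 genes. The added 1 shrinks the log2 fold changes of genes with low values. Between WT MI and sham, 7 of the 9 adhesion molecules were called higher and 0 lower, where 27.7% of all genes tested were called higher and 9.39% lower. *Sele*, *Selp*, *Selplg* and *Vcam1* rose by more than the other members, while *Icam1*, *Pecam1* and *Vwf* rose by less. In the same comparison *Icam2* and *Cdh5* were not called. Between KO-labelled MI and WT MI, 0 of the 9 were called in either direction by limma, and 3 of them, *Cdh5*, *Icam2* and *Selp*, had an unadjusted p below 0.05, as did 20% of all genes tested. Of those genes 0.816% were called higher and 0.587% lower in that comparison. Between KO-labelled MI and sham, 8 of the 9 were called higher, all but *Icam1*, against 34.8% of all genes called higher and 14.3% lower. An unadjusted p below 0.05 was reached by 7 of the 9 between WT MI and sham and by all 9 between KO-labelled MI and sham, against 46.8% and 56.1% of all genes. The comparisons share libraries and are given side by side. Of all genes tested, 70.4% had libraries that did not overlap between WT MI and sham. That share was 52.7% between the infarct groups and 76.1% between KO-labelled MI and sham. *Sele* and *Selp* were below the filter of 1 FPKM in sham and passed it through the infarct libraries. In bulk tissue, fewer cells of a type and less RNA per cell cannot be told apart.

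The scaling of the libraries bears on the small changes. With the values as deposited, the median log2 fold change of all genes tested was 0.19 between WT MI and sham and 0.24 between KO-labelled MI and sham. It was 0.00394 and 0.026 with upper-quartile scaling and −0.073 and −0.087 with quantile normalization. Calls between WT MI and sham were 3637 higher and 1232 lower as deposited, 2603 and 2159 with upper-quartile scaling, and 2288 and 2416 with quantile normalization. Between KO-labelled MI and sham they were 4569 higher and 1875 lower, 3230 and 2884, and 2841 and 3409, in the same order. For KO-labelled MI against WT MI they were 107 and 77, 88 and 93, and 117 and 108. Under both scalings *Sele*, *Selp*, *Selplg* and *Vcam1* were called higher in WT MI than in sham, and *Icam1*, *Pecam1* and *Vwf* were not.

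**Figure D1:**
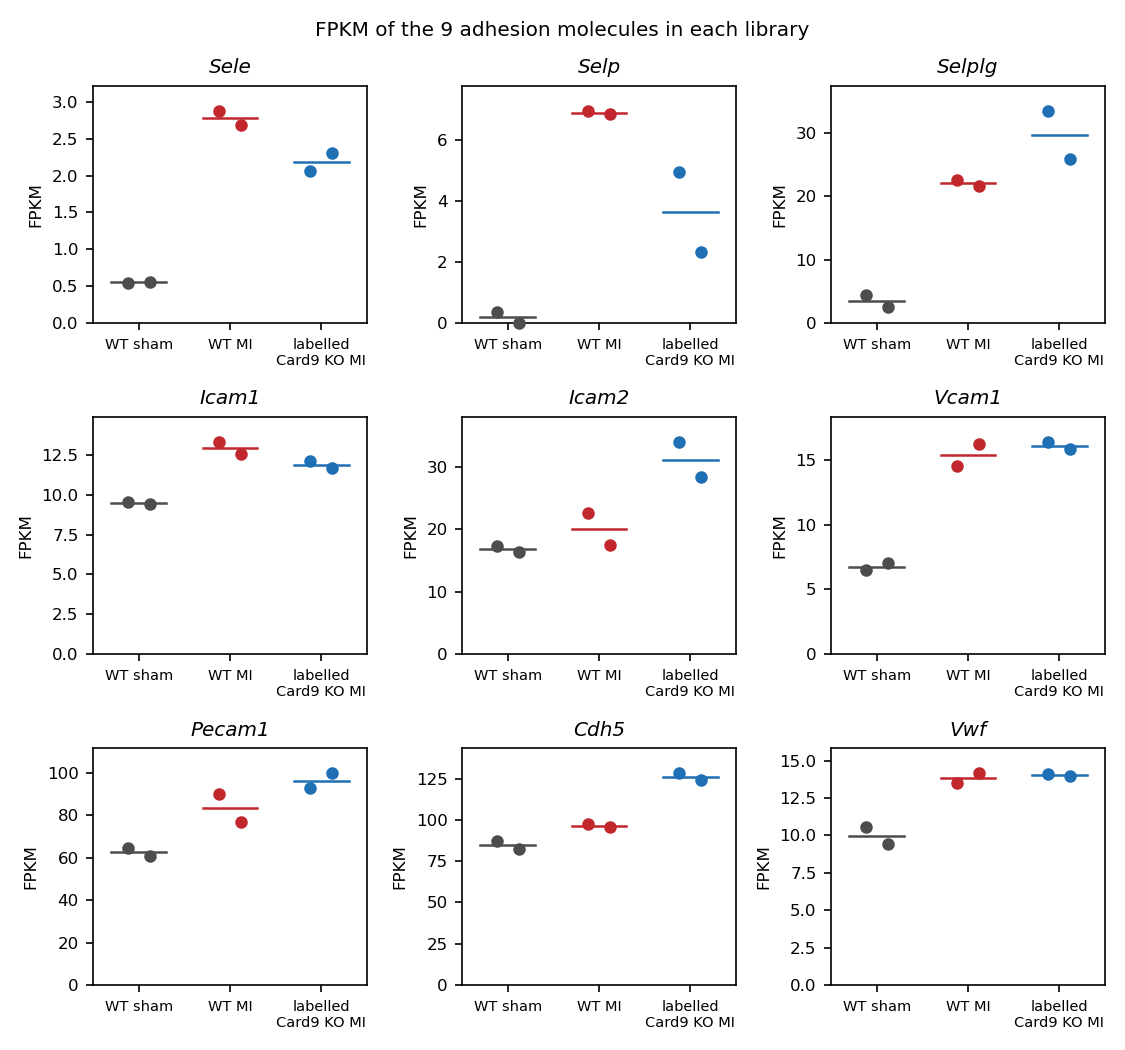
FPKM of each adhesion molecule, with 1 panel per gene and a linear axis from 0; points are libraries and lines are the means of 2 libraries. *Selp* was at 0.37 and 0 in sham and at 6.93 and 6.83 in WT MI, and *Cdh5* was at 128.2 and 124.32 in KO-labelled MI against 97.45 or less elsewhere.

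The selectins had the lowest FPKM of the 9 members. *Sele* (NCBI gene 20339; mm9 chr1:165978365-165987808, plus strand) encodes E-selectin, which endothelium makes when activated, and *Selp* (NCBI gene 20344; mm9 chr1:166045395-166080157, plus strand) encodes P-selectin, which endothelium and platelets store in granules. The genes lie 57.6 kb apart. *Sele* had an FPKM of 0.54 and 0.56 in sham, 2.87 and 2.69 in WT MI, with 2.06 and 2.31 in KO-labelled MI. Its infarct libraries were all above the sham libraries, and those of WT MI were both above those of KO-labelled MI. In sham these values stood for about 4.97 and 4.93 fragments, so the resting level is imprecise. In WT MI the mean was 5.05 times that in sham, with a log2 fold change of 1.29 (standard error 0.20, limma adjusted p = 0.0020), 1.10 above the median of all genes. Against sham KO-labelled MI had a log2 fold change of 1.04 (limma adjusted p = 0.0035), and against WT MI −0.25 (95% interval −0.70 to 0.21, limma adjusted p = 0.53).

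*Selp* was at 0.37 in 1 sham library and had no value in the other, set to 0 here. It was at 6.93 and 6.83 in WT MI, with 4.96 and 2.31 in KO-labelled MI. The WT MI libraries were alike, and those of KO-labelled MI lay below them and far apart from each other. About 4.02 fragments in a single library make up the sham signal, so no fold is given against it. On the log2(FPKM + 1) scale *Selp* rose by 2.75 in WT MI (standard error 0.30, limma adjusted p = 4.5e-04), more than any other member, and by 1.92 in KO-labelled MI (limma adjusted p = 0.0015). Between the infarct groups, the mean in KO-labelled MI was 52.8% of that in WT MI. This difference, −0.83 on the log2 scale, did not pass the test (95% interval −1.53 to −0.12, unadjusted p = 0.027 and adjusted p = 0.19 by limma). It was −0.40 without KO-labelled MI replicate 2 and −1.25 without KO-labelled MI replicate 1. Exons of *Selp* overlap transcripts on the opposite strand, which share 438 and 186 of its 4413 exon bases in the mm9 annotation, and the sources used here do not say whether the counting used strand.

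Promoter sequence from RefSeq (GRCm38.p6) was matched for 3 of the 9 members, *Sele*, *Selp* and *Icam1*, and not for *Selplg*, *Icam2*, *Vcam1*, *Pecam1*, *Cdh5* and *Vwf*. The 250 bases before the annotated start are shown for the members with a match, and a κB core was searched since NF-κB sites in these promoters are textbook background. No link between these letters and the values was tested. Capitals mark a κB core, searched on both strands as GGG, 5 bases of any kind and CC, and in *Sele* also TATAAA. Any κB site that departs from this pattern is left unmarked, so the marked letters need not be the known site of a promoter. The windows are chr1:164047984-164048233 for *Sele*, chr1:164115014-164115263 for *Selp* and chr9:21015690-21015939 for *Icam1*, all on the plus strand.
Sele: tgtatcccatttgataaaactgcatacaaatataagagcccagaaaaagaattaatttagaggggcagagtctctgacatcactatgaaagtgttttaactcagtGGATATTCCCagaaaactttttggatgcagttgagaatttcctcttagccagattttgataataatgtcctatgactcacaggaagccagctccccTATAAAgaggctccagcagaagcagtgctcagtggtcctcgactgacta
Selp: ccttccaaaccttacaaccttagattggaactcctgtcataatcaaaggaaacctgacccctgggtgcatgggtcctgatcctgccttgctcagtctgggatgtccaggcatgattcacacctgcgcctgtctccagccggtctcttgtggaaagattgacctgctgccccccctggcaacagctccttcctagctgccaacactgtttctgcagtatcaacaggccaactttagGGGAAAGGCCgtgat
Icam1: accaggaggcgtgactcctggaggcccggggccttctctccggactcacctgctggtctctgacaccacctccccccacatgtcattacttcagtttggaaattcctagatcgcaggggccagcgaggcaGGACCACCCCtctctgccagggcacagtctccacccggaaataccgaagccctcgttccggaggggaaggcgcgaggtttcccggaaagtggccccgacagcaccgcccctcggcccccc
Each window held 1 match to the κB core, from 145 to 136 bases before the start in *Sele*, 15 to 6 in *Selp* and 120 to 111 in *Icam1*, on the minus strand in *Sele* and *Icam1* and the plus strand in *Selp*. Such a match was in 45.8% of 32851 promoters of the same length. The κB consensus, which fixes more positions, matched in 0 of the 3 windows and in 7.25% of all promoters. TATAAA was found 1 time, in *Sele*, 49 to 44 bases before the start, and was in 12.4% of all promoters. The ETS core GGAA occurred 3 times in *Sele*, 6 times in *Selp* and 7 times in *Icam1* over both strands and was in 93.4% of all promoters. In *Sele* and *Selp* the κB core overlaps 1 of these GGAA matches. A match is a description of letters and not of a bound site.

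*Selplg* (NCBI gene 20345; mm9 chr5:114267807-114280510, minus strand) encodes PSGL-1, the selectin ligand that leukocytes carry. Its FPKM was 4.38 and 2.55 in sham, 22.58 and 21.67 in WT MI, with 33.37 and 25.86 in KO-labelled MI. The groups did not overlap, with sham lowest and KO-labelled MI highest. The mean in WT MI was 6.39 times that in sham, with a log2 fold change of 2.40 (standard error 0.21, limma adjusted p = 1.8e-04). In KO-labelled MI it was 8.55 times that in sham, with a log2 fold change of 2.80 (limma adjusted p = 5.3e-05). Between the infarct groups the log2 fold change of 0.39 did not pass the test (95% interval −0.10 to 0.89, limma adjusted p = 0.35). It was 0.22 without KO-labelled MI replicate 1 and 0.57 without KO-labelled MI replicate 2.

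Of the immunoglobulin-type receptors, *Vcam1* had the largest log2 fold change of each infarct group against sham. Between the infarct groups its change was the smallest in size, whatever the sign. Without WT MI replicate 2 that of *Pecam1*, at 0.092, was smaller than that of *Vcam1*, at 0.14. *Vcam1* (NCBI gene 22329; mm9 chr3:115812938-115832606, minus strand) encodes the endothelial receptor of the integrin VLA-4 and had an FPKM of 6.47 and 7.04 in sham, 14.52 and 16.2 in WT MI, with 16.36 and 15.84 in KO-labelled MI. Every infarct library was above both sham libraries, and the infarct groups overlapped. The WT MI mean was 2.27 times the sham mean, with a log2 fold change of 1.08 (standard error 0.13, limma adjusted p = 5.9e-04), and KO-labelled MI had 1.14 against sham (limma adjusted p = 2.7e-04). KO-labelled MI against WT MI gave 0.07 (95% interval −0.23 to 0.36, limma adjusted p = 0.82), and −0.0086 without WT MI replicate 1.

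*Icam1* (NCBI gene 15894; mm9 chr9:20820404-20833241, plus strand) encodes the receptor of the leukocyte integrins LFA-1 and Mac-1. It had an FPKM of 9.55 and 9.45 in sham, 13.29 and 12.57 in WT MI, with 12.12 and 11.68 in KO-labelled MI. The 3 groups did not overlap, and the highest and lowest libraries differed by a modest amount. In WT MI the mean was 1.36 times that in sham, with a log2 fold change of 0.41 (limma adjusted p = 0.031), which is 0.22 above the median of all genes. Leaving out any 1 of the 4 libraries ended this call, at a limma adjusted p of 0.097 without sham replicate 2, 0.083 without sham replicate 1, 0.15 without WT MI replicate 1, and for WT MI replicate 2 at 0.089. Over all alternatives the limma adjusted p ranged from 0.030 to 0.32. In KO-labelled MI the log2 fold change against sham was 0.30 (limma adjusted p = 0.074), which became −0.010 with quantile normalization, and against WT MI it was −0.11 (95% interval −0.39 to 0.17, limma adjusted p = 0.66). The latter was −0.073 without WT MI replicate 1 and −0.17 with quantile normalization. A noncoding transcript on the opposite strand shares 491 of the 2540 exon bases of *Icam1*.

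*Icam2* (NCBI gene 15896; mm9 chr11:106238970-106249389, minus strand) encodes a receptor that resting endothelium and platelets carry. Its FPKM was 17.29 and 16.32 in sham, 22.53 and 17.43 in WT MI, with 33.87 and 28.35 in KO-labelled MI. WT MI lay just above sham, with 1 library close to it, and KO-labelled MI stood above the rest. Between WT MI and sham the log2 fold change was 0.23 (95% interval −0.12 to 0.58, limma adjusted p = 0.28), or 0.050 without WT MI replicate 1, 0.40 without WT MI replicate 2 and 0.022 with upper-quartile scaling. KO-labelled MI had 1.56 times the mean of WT MI, a log2 fold change of 0.62 (95% interval 0.27 to 0.97) that passed at an unadjusted p of 0.0038 and not after adjustment (limma adjusted p = 0.094). Against sham the gene rose by 0.85 (limma adjusted p = 0.0027), 0.61 above the median of all genes.

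*Pecam1* (NCBI gene 18613; mm9 chr11:106515531-106611942, minus strand) encodes CD31, a junction protein of endothelium that platelets and leukocytes also carry, and lies 266.1 kb from *Icam2*. It had an FPKM of 64.65 and 60.73 in sham, 90.15 and 76.66 in WT MI, with 92.73 and 99.68 in KO-labelled MI. The groups did not overlap, although the WT MI libraries were well apart. In WT MI the mean was 1.33 times that in sham, with a log2 fold change of 0.40 (limma adjusted p = 0.022), 0.22 above the median of all genes. The call was lost without sham replicate 1 (limma adjusted p = 0.053), sham replicate 2 (0.11) or WT MI replicate 1 (0.15), and over all alternatives the limma adjusted p ranged from 0.023 to 0.21. Against sham KO-labelled MI had 0.61 (limma adjusted p = 0.0026), and against WT MI 0.21 (95% interval −0.04 to 0.46, limma adjusted p = 0.34), or 0.32 with WT MI replicate 1 left out and 0.092 with WT MI replicate 2 left out.

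*Cdh5* (NCBI gene 12562; mm9 chr8:106625525-106668402, plus strand) encodes VE-cadherin, the adhesion protein of endothelial junctions, and was the most abundant member in every group. Its FPKM was 86.97 and 82.64 in sham, 97.45 and 95.5 in WT MI, with 128.2 and 124.32 in KO-labelled MI. The groups did not overlap, and the replicates of each were close. The log2 fold change between WT MI and sham was 0.18 (95% interval −0.01 to 0.38, limma adjusted p = 0.13), at the median of all genes, and was −0.029 with upper-quartile scaling. KO-labelled MI had 1.31 times the mean of WT MI, a log2 fold change of 0.38 (95% interval 0.19 to 0.58) with an unadjusted p of 0.0022 and a limma adjusted p of 0.076. Over the alternatives this adjusted p lay between 0.059 and 0.30. Against sham *Cdh5* rose by 0.57 (limma adjusted p = 0.0012), 0.33 above the median of all genes.

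*Vwf* (NCBI gene 22371; mm9 chr6:125496792-125636697, plus strand) encodes von Willebrand factor, which endothelium stores with P-selectin in Weibel-Palade bodies and which platelets also hold. It had an FPKM of 10.59 and 9.39 in sham, 13.5 and 14.14 in WT MI, with 14.08 and 13.94 in KO-labelled MI. All infarct libraries were above the sham libraries, and the infarct groups overlapped. The WT MI mean was 1.38 times the sham mean, with a log2 fold change of 0.43 (limma adjusted p = 0.027), and KO-labelled MI had 0.45 against sham (limma adjusted p = 0.018). Both calls were lost under upper-quartile scaling, at log2 fold changes of 0.24 and 0.22 (limma adjusted p of 0.17 and 0.18). With quantile normalization they were lost at 0.19 and 0.15 (limma adjusted p of 0.25 and 0.34). The first was also lost without sham replicate 2 (limma adjusted p = 0.12), WT MI replicate 1 (0.090) or WT MI replicate 2 (0.12), out of a range from 0.027 to 0.25 over the alternatives. The latter was lost without sham replicate 2 (limma adjusted p = 0.085), KO-labelled MI replicate 1 (0.076) or KO-labelled MI replicate 2 (0.060), out of a range from 0.018 to 0.34. Between the infarct groups the log2 fold change was 0.02 (95% interval −0.27 to 0.30, limma adjusted p = 0.95), with a value of −0.017 under upper-quartile scaling.

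**Figure D2:**
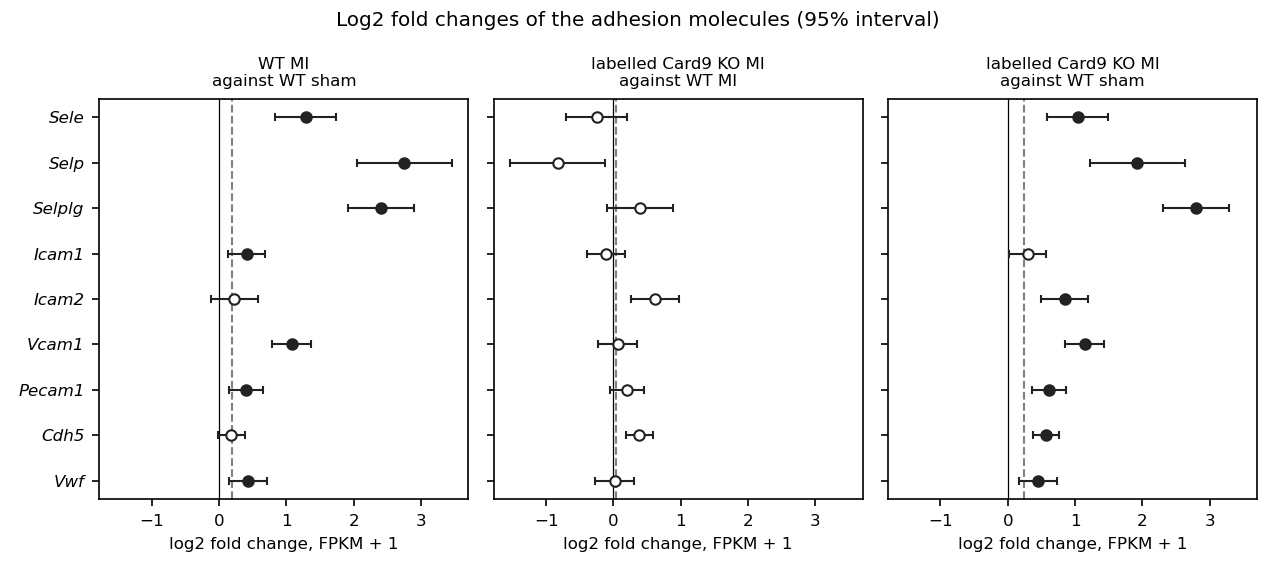
Log2 fold changes on the log2(FPKM + 1) scale with 95% intervals from limma for the 3 comparisons; filled points have an adjusted p below 0.05, and the dashed line is the median of all genes tested. 7 points are filled on the left, 0 in the middle and 8 on the right, and with upper-quartile scaling or quantile normalization the left panel would hold 4.

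By mean FPKM, which is relative to transcript length, the order in sham was *Cdh5* (84.8 ± 3.06, SD, n = 2), *Pecam1* (62.7 ± 2.77), *Icam2* (16.8 ± 0.686), *Vwf* (9.99 ± 0.849), *Icam1* (9.50 ± 0.0707), *Vcam1* (6.75 ± 0.403), *Selplg* (3.46 ± 1.29), *Sele* (0.550 ± 0.0141) and *Selp* (0.185 ± 0.262). Among neighbours in this order, the libraries of *Vwf* and *Icam1* overlapped. In WT MI *Selplg* came next after *Pecam1*, at 22.1 ± 0.643, with libraries that overlapped those of *Icam2* at 20.0 ± 3.61. *Vcam1* followed at 15.4 ± 1.19, ahead of *Vwf* and *Icam1*, and *Selp* at 6.88 ± 0.0707 stood above *Sele* at 2.78 ± 0.127. KO-labelled MI held *Icam2* in that place, at 31.1 ± 3.90, overlapping *Selplg* at 29.6 ± 5.31, and *Selp* at 3.63 ± 1.87 overlapped *Sele* at 2.19 ± 0.177.

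The study's methods name NOIseq, which was not run here. A screen written for this report took its thresholds, a fold change of at least 2 and a probability of divergence from replicate noise of at least 0.8, and was run on the FPKM values; it yields no p. Its noise was run in 2 ways. With replicate pairs at 0 left out, which came first, 2 of the 9 members were called higher in WT MI than in sham, *Selplg* and *Selp*, against 6.55% of 16896 genes in either direction. With all pairs in the noise, an alternative chosen after that outcome was seen, the screen called 3, *Selplg* (probability 0.887), *Selp* (0.883) and *Vcam1* (0.809), against 6.97%. *Vcam1* thus sits at the threshold, at 0.799 in the first way, and *Sele* missed it at 0.671 and 0.687. Between KO-labelled MI and WT MI the screen called 0 of the 9 in both, against 0.99% and 1.06% of 17164 genes. Between KO-labelled MI and sham it called 2 in both, *Selplg* and *Vcam1*, against 9.7% and 10.5% of 17027 genes. Counts by the screen for other lists below are with all pairs.

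Levels were next set beside those of other genes of the same cell type, without a test, as log2(FPKM + 1) of the member minus the mean of 12 endothelial markers in the same library. That mean was 4.46 and 4.32 in sham, 4.43 and 4.47 in WT MI, with 4.78 and 4.64 in KO-labelled MI, so it was highest in the last group. Between WT MI and sham the relative level was higher by 2.69 for *Selp*, 1.23 for *Sele* and 1.02 for *Vcam1*. *Vwf* was higher by 0.37, *Icam1* by 0.35, *Pecam1* by 0.34 and *Cdh5* by 0.12, with no overlap of libraries, while *Icam2* overlapped. Between the infarct groups, *Cdh5* was 0.12 and *Icam2* 0.36 higher in KO-labelled MI. *Icam1* differed by −0.37, *Sele* by −0.51, *Selp* by −1.09, *Vcam1* by −0.20 and *Vwf* by −0.25, each without overlap. *Pecam1* differed by −0.06, with overlap. Before the marker mean was subtracted, *Vcam1* and *Vwf* had log2 fold changes of 0.07 and 0.02, with overlap. Also before subtraction, 70.4% of all genes tested did not overlap between WT MI and sham, and 52.7% between the infarct groups. The relative level of *Icam1* in KO-labelled MI overlapped that in sham.

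For *Selplg* the reference was 10 leukocyte markers, whose mean was 3.04 and 2.87 in sham, 5.40 and 5.49 in WT MI, with 6.03 and 5.63 in KO-labelled MI. Relative to them *Selplg* was at −0.61 and −1.04 in sham, −0.84 and −0.98 in WT MI, with −0.93 and −0.88 in KO-labelled MI. All 3 groups overlapped, and the difference of −0.09 between WT MI and sham was smaller than the SD of 0.30 in sham.

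**Figure D3:**
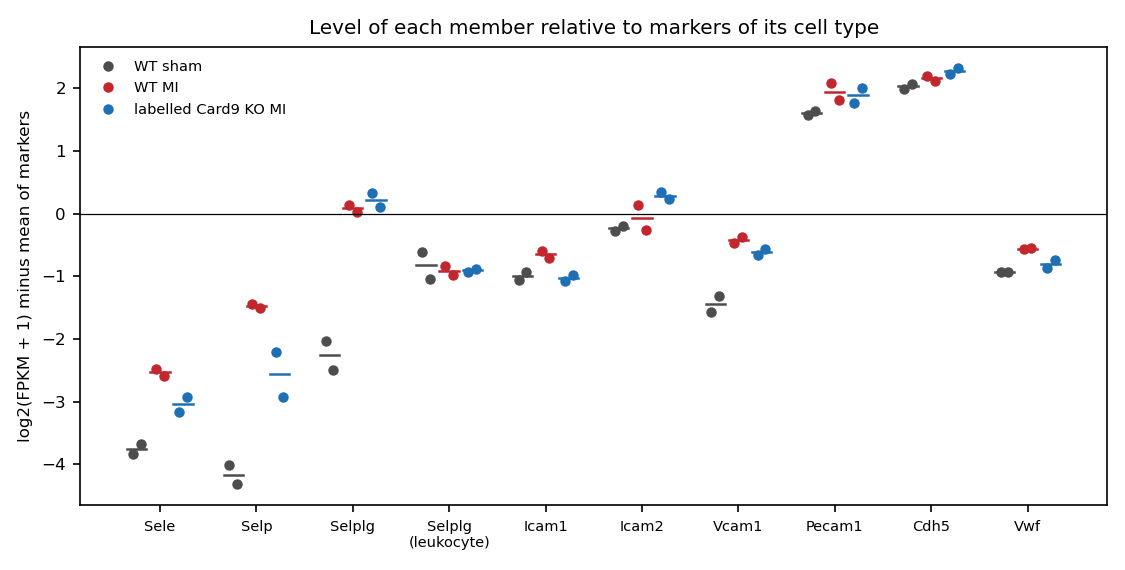
Level of each member as log2(FPKM + 1) minus the mean of 12 endothelial markers in the same library, and for *Selplg* also minus the mean of 10 leukocyte markers; points are libraries and short lines are means of 2. *Selplg* has means of −0.83, −0.91 and −0.91 beside leukocyte markers and of −2.26, 0.08 and 0.21 beside endothelial markers.

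Other genes of the adhesion route were taken from 5 lists. Each list gene given with an adjusted p below 0.05 had both libraries of a group beyond both of the other. For most of them this was a condition of being named. Over all genes tested it held for 70.4% between WT MI and sham and for 76.1% between KO-labelled MI and sham. Below 1 FPKM in both sham libraries, and past the filter through the infarct libraries, were 3 integrins, 4 rolling genes, 2 junction genes, 2 Weibel-Palade genes and 3 inducers, and among the markers below 5 neutrophil, 2 macrophage, 1 endothelial and 1 lymphocyte gene. List medians depend on the constant added: with 0.1 and with 5 in place of 1, those of WT MI against sham were 3.14 and 0.84 for the integrins, 0.84 and 0.49 for the rolling genes, 0.29 and 0.22 for the junction genes, 0.96 and 0.44 for the Weibel-Palade genes and 1.45 and 0.86 for the inducers. Of the leukocyte integrin subunits, 7 of 8 tested in WT MI were called higher than in sham and 0 lower, with a median log2 fold change of 1.77 against 0.19 over all genes. Without a filter 9 were tested, with 7 higher and a median of 1.55. *Itgb2*, the shared chain of the receptors of ICAM-1, had an FPKM of 5.5 and 2.06 in sham, 40.83 and 43.84 in WT MI, with 56.45 and 34.32 in KO-labelled MI. Its partner *Itgam* rose by 3.17 (limma adjusted p = 8.0e-05) and *Itgb7* by 2.13 (limma adjusted p = 0.0026). The most abundant subunit, *Itgb1*, was at 113.11 and 107.15, 215.91 and 198.07, and 235.57 and 225.22 FPKM in the same order of groups. *Itga9*, at a log2 fold change of −0.25, was the exception, and it was called lower under both scalings. In KO-labelled MI, 7 of 8 were higher than in sham, among them *Itgax* with an increase from 0.53 and 0.16 to 8.56 and 4.95 FPKM (limma adjusted p = 2.3e-04).

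Among 15 genes tested that act in leukocyte rolling, mostly selectin ligands and the enzymes that build their glycans, WT MI had 9 called higher than in sham and 1 called lower, with a median of 0.79. *Cd44*, a hyaluronan receptor, rose by 2.87 (limma adjusted p = 4.2e-05) and *Cd24a* by 2.67 (limma adjusted p = 2.4e-04). The most abundant gene of the list, *Cd34*, rose by 0.51 in WT MI (limma adjusted p = 0.0075), a call lost with upper-quartile scaling (0.055) and without WT MI replicate 2 (0.057), and the sialyltransferase gene *St3gal6* had −0.60 (limma adjusted p = 0.0064, and 0.051 without WT MI replicate 1). In KO-labelled MI, 10 were higher and 1 lower than in sham, with a median of 0.81.

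Of 19 other junction and transmigration genes tested, 8 were higher and 1 lower in WT MI, with a median of 0.27, against 0.067 and 0.045 under the scalings. Over all genes 27.7% were higher and 9.39% lower, with a median of 0.19. Upper-quartile scaling and quantile normalization each gave 5 higher and 3 lower, and leaving out WT MI replicate 1 gave 4 higher, WT MI replicate 2 5 higher. *Rap1b*, a small GTPase, rose by 1.63 (limma adjusted p = 4.8e-05) and *Mcam*, which encodes CD146, by 1.49 (limma adjusted p = 3.4e-04). *Cd177*, a neutrophil partner of PECAM-1, had no value in either sham library, set to 0 here, and was at 2.07 and 1.2 in WT MI (limma adjusted p = 0.0048). Without WT MI, the group where it was high, *Cd177* would not have passed the filter. *Ctnna1*, the most abundant, had 0.34 (limma adjusted p = 0.049), a call lost under both scalings, with 0.1 or 5 added, without a filter, with the replicate block and with each of the 4 libraries left out (limma adjusted p from 0.057 to 0.27). In KO-labelled MI, 9 were higher and 1 lower than in sham, with a median of 0.18, where over all genes 34.8% were higher and 14.3% lower, with a median of 0.24. The counts were 6 and 3 with upper-quartile scaling, 8 and 3 after quantile normalization and 6 and 0 without sham replicate 2. The median was −0.05 with upper-quartile scaling, 0.045 with quantile normalization, 0.37 without KO-labelled MI replicate 2, 0.29 without KO-labelled MI replicate 1 and 0.27 without sham replicate 2. *Alcam* rose by 1.44 (limma adjusted p = 0.0035). The gene called lower in each infarct group was *Jam2*, at 48.55 and 58.7 in sham and 39.38 and 40.66 in WT MI (limma adjusted p = 0.029, and up to 0.16 without sham replicate 2, WT MI replicate 1 or WT MI replicate 2, which ended the call). In KO-labelled MI it was at 38.48 and 41.83 (limma adjusted p = 0.023), a call lost without sham replicate 2 (0.13) or KO-labelled MI replicate 1 (0.11).

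Weibel-Palade body genes, genes that handle von Willebrand factor and the protein C pathway genes *Procr* and *Thbd*, called the Weibel-Palade genes here, numbered 10 tested, of which 5 were higher and 0 lower in WT MI, with a median of 0.65; 3 were higher without WT MI replicate 1. *Cd63*, a granule membrane protein and the most abundant of them, rose by 1.44 (limma adjusted p = 6.5e-05), *Procr* by 1.78 (limma adjusted p = 9.7e-04) and *Angpt2* by 1.25 (limma adjusted p = 0.0079), the last not called without WT MI replicate 1 (0.061). In KO-labelled MI, 7 were higher and 1 lower than in sham, with *Plat* at a rise of 1.33 (limma adjusted p = 2.4e-04) and *Thbd*, the thrombomodulin gene, as the lower gene at −0.39 (limma adjusted p = 0.034, and up to 0.17 with a library left out, where the call was lost without sham replicate 1 or either KO-labelled MI library). That number of higher genes was 4 without KO-labelled MI replicate 1 and 4 with quantile normalization.

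Cytokines and receptors known to induce these molecules, with NF-κB subunits, had 14 genes tested, and 10 were higher and 0 lower in WT MI, with a median of 1.32. *Il6* and *Osm*, without a value in sham, passed the filter of 1 FPKM through the infarct libraries, while *Il1a*, *Lta* and *Ifng* did not pass it. Without a filter 17 were tested, with 10 higher and a median of 0.86. *Il6* was at 5.08 and 5.94 in WT MI, with 4.34 and 6.79 in KO-labelled MI. *Il4ra* rose by 2.67 (limma adjusted p = 7.0e-05) and *Il1b* by 2.34 (limma adjusted p = 1.6e-04), and the TNF receptor gene *Tnfrsf1a*, the most abundant, by 1.24 (limma adjusted p = 0.0013). *Tnf* itself had 0.62 (limma adjusted p = 0.14) and passed the filter through WT MI alone. In KO-labelled MI, 13 were higher than in sham, or 10 with either scaling or without KO-labelled MI replicate 1, and the median was again 1.32, or 0.89 without a filter. Between the infarct groups limma called 0 genes in each of these 5 lists. At an unadjusted p below 0.05 there were 1 among the integrins, 3 each among the rolling, junction and Weibel-Palade genes and 0 among the inducers, against 20% of all genes, and the screen called 0. Their medians lay between −0.02 for the rolling genes and 0.11 for the integrins, against 0.04 over all genes. With a library left out the rolling median ran from −0.17 (WT MI replicate 2) to 0.098 (KO-labelled MI replicate 2), and that of the integrins from −0.033 (KO-labelled MI replicate 1) to 0.21 (KO-labelled MI replicate 2).

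**Figure D4:**
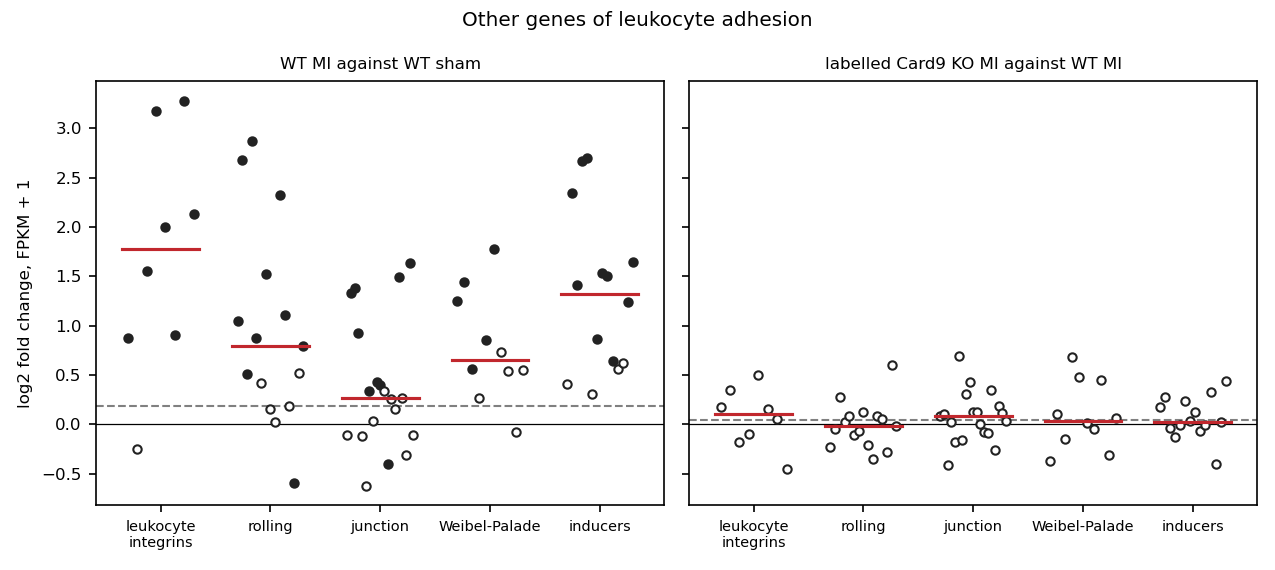
Log2 fold changes on the log2(FPKM + 1) scale of other genes of the adhesion route in WT MI against sham and in KO-labelled MI against WT MI; each point is a gene, filled at an adjusted p below 0.05, red lines are list medians and the dashed line is the median of all genes. The integrin median is 1.77 on the left and 0.11 on the right, where 0 points are filled.

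Of 12 endothelial core markers, 2 were higher (*Ecscr* and *Esam*) and 1 lower (*Kdr*) in WT MI than in sham. Their FPKM summed to 319.7 and 283.2 in sham, 301.2 and 310.2 in WT MI, with 372.4 and 343.2 in KO-labelled MI. The most abundant, *Egfl7*, was at 45.95 and 45.54, 55.63 and 51.54, and 59.75 and 52.53 in that order, and 0 of the 12 were at 0 in any library. Both scalings gave 1 higher and 4 lower, and 1 was higher without sham replicate 2, WT MI replicate 1 or WT MI replicate 2, since *Esam* lost its call (limma adjusted p = 0.022, up to 0.12). Of KO-labelled MI against WT MI, 0 of the 12 were called by limma or the screen, 4 had an unadjusted p below 0.05, and all 12 had a positive log2 fold change, with a median of 0.24. Over all genes 20% had such a p and 56.3% were positive, with a median of 0.04. Without KO-labelled MI replicate 1 the positive ones numbered 9 and the median was 0.14, without either WT MI library or under either scaling they numbered 11, and without KO-labelled MI replicate 2 the median was 0.36. KO-labelled MI against sham had 4 higher and 1 lower, but 1 and 2 with upper-quartile scaling and 2 higher without KO-labelled MI replicate 1. *Kdr*, the VEGF receptor gene, was at 62.26 and 58.86 in sham and 34.37 and 40.59 in WT MI (limma adjusted p = 0.0028), and *Ecscr* at 11.85 and 9.34 against 33.67 and 33 (limma adjusted p = 3.3e-04). Over the wider list of 25 endothelial genes, which include the core markers, 6 rose and 3 fell in WT MI (*Kdr*, *Prox1* and *Cd36*), which became 4 and 8 with upper-quartile scaling. Over all genes 27.7% rose and 9.39% fell in WT MI, and 34.8% and 14.3% in KO-labelled MI. With upper-quartile scaling, 2603 of all 13120 genes rose and 2159 fell in WT MI, and 3230 and 2884 in KO-labelled MI. In KO-labelled MI 8 rose and 5 fell against sham, or 4 and 7 with that scaling, and 5 rose without KO-labelled MI replicate 1. *Ackr1*, a chemokine-binding protein of venules, had no value in either sham library and was at 2.6 and 2.67 in WT MI, with 1.02 and 0.85 in KO-labelled MI. Between the infarct groups it was called lower with 5 added and not called with 1 added. *Ackr1* would not have passed the filter without WT MI, the group where it was high. *Plvap* rose by 1.83 (limma adjusted p = 2.7e-04). With 1 added and all 6 libraries, *Lyve1*, a lymphatic and macrophage marker, was the only endothelial-list gene called between the infarct groups. It was at 12.57 and 14.38 in WT MI against 4.7 and 6.84 in KO-labelled MI (limma adjusted p = 0.037). Its limma adjusted p reached 0.19 with a library left out, and it was not called without either WT MI library or without KO-labelled MI replicate 1. The call was also lost with 0.1 added, without a filter, with the replicate block and in a fit of the infarct groups alone (limma adjusted p from 0.053 to 0.10). The part of these shifts in the members' changes was not tested.

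All 10 leukocyte markers were higher in WT MI and in KO-labelled MI than in sham. Their FPKM summed to 102.9 and 87.7, 573.0 and 590.5, and 848.1 and 651.1 in sham, WT MI and KO-labelled MI, and the most abundant, *Laptm5*, was at 28.23 and 21.91, 112.52 and 124.79, and 203.91 and 149.62. *Itgb2* is in this list and among the integrins. KO-labelled MI against WT MI had 0 of the 10 called by limma or the screen and 6 at an unadjusted p below 0.05, against 20% of all genes. All 10 had a positive log2 fold change, as did 56.3% of all genes, with a median of 0.35. That median was 0.14 without KO-labelled MI replicate 1 and 0.60 without KO-labelled MI replicate 2. With 5 added limma called *Ptprc* higher. Of 16 macrophage markers, 14 were higher in each infarct group, with sums of 434.4 and 373.7, 1478 and 1885, and 3004 and 2197 and *Lyz2* as the most abundant gene. *Cx3cr1*, a chemokine receptor gene, was the macrophage marker called between the infarct groups, at 6.08 and 8.18 in WT MI against 16.33 and 15.96 (limma adjusted p = 0.034), a call lost with each of the 4 libraries left out (0.064 to 0.19), without a filter (0.091) and with the replicate block (0.056). With 5 added 4 were called higher and with quantile normalization 3. Of the 16, 14 had a positive log2 fold change in KO-labelled MI against WT MI and 9 an unadjusted p below 0.05, with a median of 0.66, or 12 positive and 0.41 without KO-labelled MI replicate 1. The shares over all genes were 56.3% and 20%. Neutrophil markers, 9 tested, were all higher in WT MI, and 8 in KO-labelled MI (5 with quantile normalization), with sums of 8.1 and 5.4, 238.6 and 115.5, and 78.2 and 58.0. *S100a9* was the most abundant at 94.04 and 39.24 in WT MI, and between the infarct groups limma called 0 of the 9, with 4 at an unadjusted p below 0.05 and 2 called by the screen. All 9 had a negative log2 fold change in KO-labelled MI against WT MI with no overlap of libraries, where 43.7% of all genes tested had a negative value and 21.9% were lower without overlap. Their median was −0.64, or from −0.43 without WT MI replicate 1 to −1.03 without WT MI replicate 2. In 4 alternatives limma called 1 of them lower: *Fpr1* with 5 added or quantile normalization, *S100a9* with the replicate block and *S100a8* without WT MI replicate 2. *Fpr1* passed the filter through WT MI alone. *Trem1*, at 0 in sham and at 1.07 and 0.64 in KO-labelled MI, would also not have passed without WT MI. Both are thus in the count of 9 through the group where they were high. Without a filter 11 were tested, with 1 positive and a median of −0.59. For platelets, *Pf4* was at 10.19 and 13.43, 102.78 and 113.47, and 113.51 and 81.3 and *Ppbp* rose with it (limma adjusted p = 0.0011), which were the 2 genes called of 5 tested in each infarct group. Of the 11 listed platelet markers 5 and 1 were at 0 in sham, 2 and 0 in WT MI, with 1 and 4 in KO-labelled MI. Lymphocyte markers summed to 11.6 or less, and *Cd79b*, at most 2.48, was the 1 of 5 tested called higher in WT MI (limma adjusted p = 0.024), a call lost with quantile normalization (0.058) and without sham replicate 2, WT MI replicate 1 or WT MI replicate 2 (up to 0.11). KO-labelled MI against WT MI had 0 platelet and 0 lymphocyte markers called by limma, at an unadjusted p below 0.05 or by the screen. The part of these markers in the members' changes was not tested.

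Pericyte, smooth muscle and fibroblast markers summed to 674.5 and 686.0 in sham, 1086 and 1387 in WT MI, with 2114 and 2076 in KO-labelled MI. *Col1a1* and *Postn* made up 70.0 and 57.9, 542.8 and 756.5, and 1558 and 1497 of these, and the other 10 summed to 604.4 and 628.1, 543.05 and 630.8, and 556.0 and 579.0. Of the 12, 5 were higher and 3 lower in WT MI (*Abcc9*, *Rgs5* and *Kcnj8*), 8 were higher and 3 lower in KO-labelled MI, or 5 and 3 with either scaling or without sham replicate 1, and *Col1a1* and *Postn* were also called higher in KO-labelled MI than in WT MI (limma adjusted p = 0.034 and 0.016). Neither was called without WT MI replicate 1 or KO-labelled MI replicate 1, nor was either without a filter, nor *Col1a1* without KO-labelled MI replicate 2 or with the replicate block, and the highest limma adjusted p was 0.15 for *Col1a1* and 0.14 for *Postn*. The 14 cardiomyocyte markers, led by *Actc1*, summed to 58912 and 60094 in sham, 36620 and 37462 in WT MI, with 30772 and 35597 in KO-labelled MI, and 10 were lower in WT MI, or 14 with upper-quartile scaling, 7 without either WT MI library, and 8 lower and 1 higher with quantile normalization. All 14 were lower in KO-labelled MI than in sham, or 10 lower and 2 higher with quantile normalization, and against WT MI 0 were called by limma or the screen, with 5 at an unadjusted p below 0.05. Against WT MI 1 of the 14 had a positive log2 fold change, with a median of −0.13. Over all genes 20% had such a p and 56.3% were positive. Without KO-labelled MI replicate 1, 5 of the 14 were positive and the median was −0.023. With 5 added before the logarithm, limma called *Pln* lower in KO-labelled MI than in WT MI. The part of these markers in the members' changes was not tested.

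**Figure D5:**
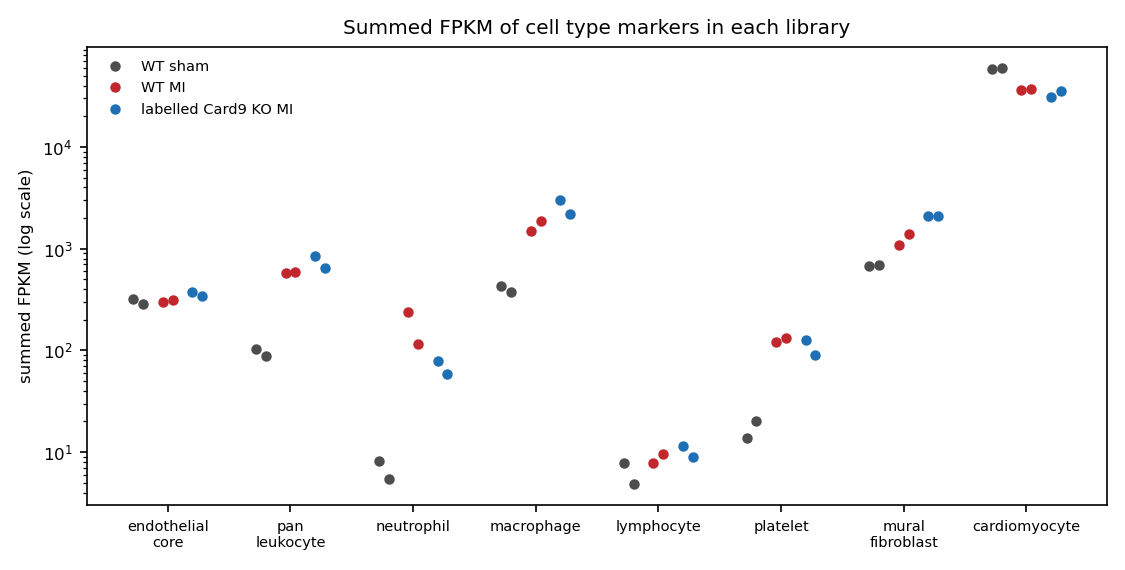
Summed FPKM of marker lists in each library on a log axis, by group; each point is 1 library. Leukocyte, macrophage and neutrophil sums are higher in the infarct libraries than in sham, cardiomyocyte sums are lower, and endothelial core sums stay between 283.2 and 372.4.

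The genes with the most similar profile over the 6 libraries were found among all 13120 tested by the root mean square difference of log2(FPKM + 1) centred on each gene's own mean. *Selp* was closest to *Ptx3* (0.19), *Clec4e* (0.22) and *Pgf* (0.23), on a scale where its own SD was 1.19. *Selplg* was closest to *Coro1a* (0.07), which is among the leukocyte markers, and *Vim* (0.10) was also near. *Sele* was nearest to *Sfxn5*, *Medag* and *Tgm2*, at 0.05 to 0.08, and *Vcam1* to *Ddost*, *Traf1* and *Golm1*, at 0.05 to 0.06. The nearest were *Mybbp1a*, *Get3* and *Selenoi* to *Icam1*, *Ccdc88a*, *Dio2* and *Zfp354c* to *Icam2*, *Emp2*, *Mettl9* and *Sub1* to *Pecam1*, *Pdcl*, *Tmem123* and *Sipa1l1* to *Cdh5*, and *Slc31a1*, *Evc2* and *Tcf25* to *Vwf*, at 0.02 to 0.07. These distances describe 6 libraries only.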

How the data were processed

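RNA of heart tissue was sequenced in 6 libraries, 2 to a group, with groups taken from the labels. Per the labels and the study's methods, the authors enriched mRNA, used an Illumina TruSeq kit and mapped reads to mm9 with BWA and Bowtie2, whose versions are not given in the sources used here, and deposited FPKM to 2 decimals for each NCBI gene number. FPKM is relative to transcript length and library total, so a fall of abundant genes raises the others. The annotation and the use of strand are not given in the sources used here. Genes not listed were set to 0, and a GRCm38.p6 table gave symbols for 17390 of the 17441 gene numbers. Positions and overlaps are from the mm9 GENCODE annotation.

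Depth was estimated from the steps of low FPKM values. Between 75.3% and 84.0% of those values came out whole within 0.15 of a fragment, so counts were not rebuilt. The floor of 3 fragments covers counting error only. The test used limma 3.58.1 in R 4.3.3, lmFit and eBayes with trend on log2(FPKM + 1), for genes of at least 1 FPKM in at least 2 libraries, 2-sided, with Benjamini-Hochberg adjustment over all genes tested and a call below 0.05. On simulated data with 50 changed genes at each size the fit called 3 at a 1.5-fold change, 23 at 2, 47 at 3 and 50 at 5, with 7 calls among unchanged genes. There 12859 genes were fitted, and genes with low values were not among those changed. Recovery where many more genes change, as between WT MI and sham with 4869 called, was not simulated. An exact permutation test of 2 against 2 libraries cannot go below p = 0.333, and none was run. Python 3.11.15, numpy 2.4.6, pandas 2.3.3 and matplotlib 3.10.9 did the rest. In the screen, written after NOIseq with the study's thresholds, a gene's log2 ratio and difference of group means were compared with those between replicates, with 0 replaced by 0.005. Its noise was pooled over replicate pairs. Pairs at 0 in both libraries were left out at first, and all pairs were taken after that outcome was seen; both are reported.

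Named are the 9 members, *Card9*, in each list up to 3 called genes with the largest change and no overlap and the most abundant gene, and up to 3 genes most similar to each member. A gene of the lists and a gene among the most similar are not reported here by name, and the first is kept in the counts and medians of its list. *Itga9*, *St3gal6*, *Tnf*, *Jam2*, *Thbd*, *Cd36*, *Rgs5*, *Kcnj8*, *Fpr1*, *Trem1*, *Ptprc*, *Pln*, *Osm*, *Il1a*, *Lta* and *Ifng* were added after their values were seen. The members and lists were chosen with earlier results of these data known. The alternatives tried were 0.1 or 5 added before the logarithm, no filter, upper-quartile scaling, quantile normalization, a replicate block, a fit of the groups compared alone, the screen, and each library left out. *Adamts13*, *Gp6*, *Il4*, *Il13*, *Ly6g*, *Elane* and *Camp* had no value in any library used here.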

Additional observations from a re-analysis of the deposited data

How the results depend on the processing

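Members called between WT MI and sham numbered 4 instead of 7 by upper-quartile scaling and 4 by quantile normalization, 2 by the screen with replicate pairs at 0 left out of its noise, 3 with all pairs in it, which was chosen after seeing the data, and 4 to 5 with a library left out, where the lone library is assumed to vary like the other groups. Between KO-labelled MI and sham the screen called 2 instead of 8, under either noise. Genes called between KO-labelled MI and WT MI, 184 in all, numbered 80 with 0.1 added, 312 with 5 added, 12 without a filter, 71 with the replicate block and 9 to 110 with a library left out; between WT MI and sham they numbered 2939 to 3884, against 4869, with a library left out. The replicate block kept 7, 0 and 8 members called. Deviations of same-numbered libraries from their group means correlated at 0.0024, −0.0083 and 0.020. Signs turned for *Cdh5* between WT MI and sham (−0.029, upper-quartile scaling), for *Icam1* in KO-labelled MI against sham (−0.010, quantile normalization), and against WT MI for *Vwf* (−0.017 and −0.042 under the scalings, −0.012 to 0.050 with a library left out) and *Vcam1* (−0.0086 to 0.14 with a library left out), none of them called. Of 297 log2 fold changes of members under alternatives, 270 kept their direction and side of the threshold, 21 lost the call and 6 turned. With 0.1 added, levels relative to endothelial markers became 2.08 for *Sele*, 4.95 for *Selp*, 2.63 for *Selplg* and 0.40 for *Vwf* in WT MI against sham, and 1.47, 3.66 and 2.75 for the first 3 in KO-labelled MI; with summed markers *Vwf* became 0.41 and 0.20, *Icam2* 0.60 and *Cdh5* 0.32. The other 169 of 180 relative levels moved by less than the spread between replicates, 10 of them with a change of sign. The causes were not tested. Depth limits *Sele* and *Selp* in sham, at about 5 fragments or fewer per library.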
